A study of Mus musculus with 5 samples.

Results

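Among the genes measured in these cerebella were 9 genes of growth cones and the microtubule cytoskeleton, chosen by name: Gap43, Basp1, Map1a, Map1b, Map2, Mapt, Map6, Stmn3 and Stmn4. They are 9 of the 55421 genes in the count table. All 9 passed the filter on low counts and were tested among 20388 genes. Whole cerebella of mice of mixed sex, aged 14 postnatal days, were profiled by bulk RNA-seq, with paired reads of 150 bp from RNA depleted of ribosomal RNA. The 3 Yy1 cKO libraries came from Pcp2 Cre/+; Yy1 fx/fx mice. The 2 control libraries came from Pcp2 Cre/+; Yy1 fx/+ littermates, so every animal carried the Cre and at least 1 floxed copy of Yy1, which encodes a zinc finger transcription factor. The Pcp2 promoter drives the Cre in Purkinje cells, whose axons are the only output of the cerebellar cortex, while the RNA came from all cells of the organ. The comparison asks which transcripts differ when both copies of Yy1, rather than 1, are open to deletion in Purkinje cells. The controls are thus not free of the deletion.

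A growing axon ends in a growth cone, a motile tip in which actin filaments and microtubule ends are steered by signals from outside. GAP-43 and BASP1 are lipid-anchored proteins of its membrane that bind calmodulin and are phosphorylated by protein kinase C. MAP1A, MAP1B, MAP2, tau and MAP6 bind microtubules and stabilise them, and the stathmins bind free tubulin and favour disassembly. In rodent brain MAP1B is abundant while axons grow and MAP1A in mature dendrites. At postnatal day 14 the cerebellum still holds young granule cells that are sending out axons.

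Levels are TMM-scaled CPM, the reads of a gene relative to the scaled total of its library, and totals were 18872728 to 20305705 counts in the Yy1 cKO libraries and 17424860 and 18007663 in the controls. Yy1 itself averaged 77.0 ± 4.3 CPM in Yy1 cKO and 74.2 ± 0.60 CPM in the controls (SD, n = 3 and 2). The Pcp2 promoter is not active in most cells of the tissue, and the counts cover the whole gene with its deleted part, so this checks the labels little. The cerebellar markers were present in every library, with Calb1 of Purkinje cells at 623 to 734 CPM in Yy1 cKO and 611 and 730 CPM in the controls. Pcp2 itself, whose promoter drives the Cre, was uneven, with 180.0, 178 and 344 CPM in Yy1 cKO and 158 and 247 CPM in the controls. Gabra6 of granule neurons stood at 599 to 638 CPM in Yy1 cKO and 433 and 490 CPM in the controls. Yy1 cKO 3 stood apart from its group. Its counts differed from those of the other two by 16.6 and 16.7 in chi-square per gene, while Yy1 cKO 1 and 2 differed by 3.51 and the controls by 7.72, and pairs across the groups by 34.1 to 41.5. The labels do not say which animals the replicates came from, so each p-value reflects only how these samples spread, which may be technical. In bulk samples fewer cells of a type and less RNA per cell cannot be told apart.

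Basp1 fell by far the most of the 9 genes. Of the others, Map6 and Map1b fell and Map1a rose, each by less than 1.5-fold, and Gap43, Map2, Mapt, Stmn3 and Stmn4 did not pass the test. Altogether 3 genes fell and 1 rose at an adjusted p under 0.05 (edgeR quasi-likelihood test, Benjamini-Hochberg adjustment over all genes tested), where 12.6% of all genes tested fell and 10.7% rose. The median log2 fold change, Yy1 cKO over control, was -0.22 over the 9 genes and -0.000857 over all genes tested. The groups did not overlap in 6 genes that were lower in Yy1 cKO, where 27.0% of all genes stood so, and in 1 that was higher, where 25.2% did.

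**Figure D1:**
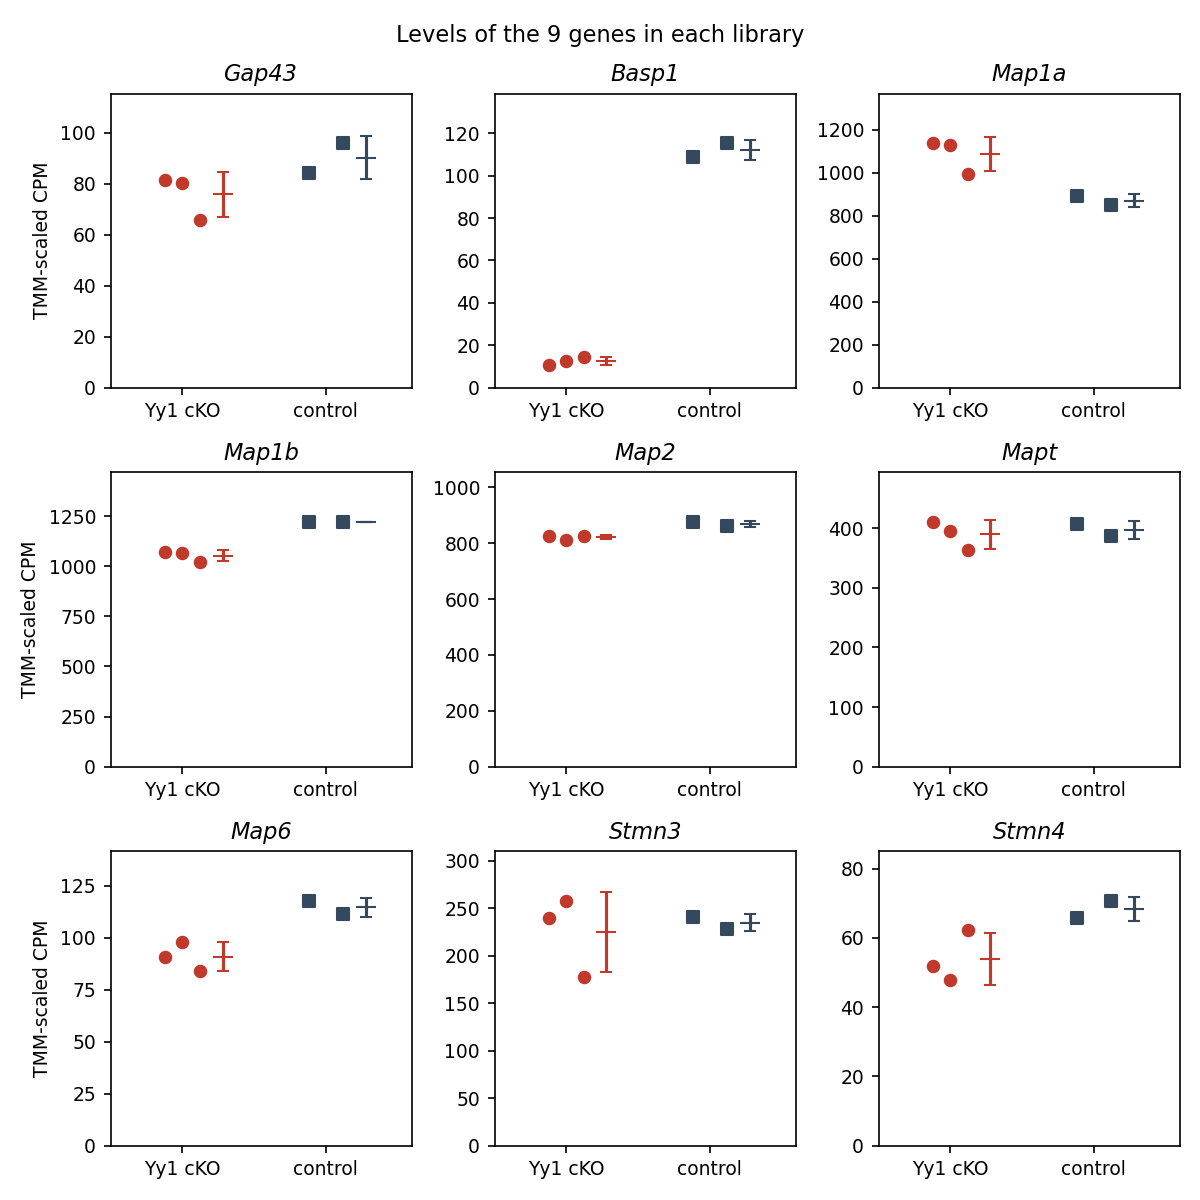
TMM-scaled CPM (vertical axis, from 0) of each gene in the 3 Yy1 cKO libraries (red circles) and the 2 control libraries (dark squares), with the mean and SD of each group to the right of its points. Basp1 stands near 12.6 CPM in Yy1 cKO and near 112 CPM in the controls, and the other 8 genes differ far less.

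Of the growth cone membrane proteins, Basp1 (ENSMUSG00000045763.8, a protein-coding gene at chr15:25363277-25413764, GRCm38) had 212, 227 and 272 counts in Yy1 cKO, against 2025 and 2073 counts in the controls. These are 10.7, 12.4 and 14.6 CPM in Yy1 cKO and 109 and 116 CPM in the controls. Every Yy1 cKO library was thus far below both controls, and their mean was 11.2% of the control mean. The log2 fold change was -3.16 ± 0.11 (SE, adjusted p = 9.49e-07, edgeR quasi-likelihood test), an 8.93-fold lower mean. Basp1 ranked 17 among the 20388 genes by p, and 12 by size of fall among the 1516 genes that fell and had a mean of at least 10 CPM. It was called without each library in turn, with log2 fold changes of -3.28 to -3.05.

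The gene with the largest fall and the 1 that rose are shown by the 250 bases that precede their start sites (RefSeq, GRCm38.p6, 5′ to 3′ on the strand of the gene). Both were searched for ATGGCG, the core of the motif known for YY1, and a match would be in capitals. The Basp1 stretch lies at chr15:25413765-25414014 on the minus strand and the Map1a stretch at chr2:121289352-121289601 on the plus strand.
Basp1: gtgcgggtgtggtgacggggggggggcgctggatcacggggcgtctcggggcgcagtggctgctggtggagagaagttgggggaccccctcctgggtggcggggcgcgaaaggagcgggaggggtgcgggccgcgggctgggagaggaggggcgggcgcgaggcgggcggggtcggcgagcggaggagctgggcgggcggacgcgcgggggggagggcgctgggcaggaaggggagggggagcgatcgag
Map1a: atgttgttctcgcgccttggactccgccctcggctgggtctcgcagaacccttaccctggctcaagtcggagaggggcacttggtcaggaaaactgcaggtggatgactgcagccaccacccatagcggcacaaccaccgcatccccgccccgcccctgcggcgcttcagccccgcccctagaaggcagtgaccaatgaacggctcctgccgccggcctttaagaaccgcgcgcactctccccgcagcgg
Neither stretch holds ATGGCG on either strand, which says only that these letters are not in this window. The Basp1 stretch has 78.8% G and C and that of Map1a 66.0%, where the median over all promoter windows in the table was 52.4%. In the whole window of 300 bases, which takes in 50 bases after the start, Map1a has 1 match, shown with 9 bases to either side at chr2:121289626-121289649.
Map1a match: ggagtttccATGGCGaccgaagcc
The match begins at base 34 of the transcribed part. The table had windows for 5 of the 9 genes (Basp1, Map1a, Map1b, Map2 and Stmn3), and 1 of these 5 had a match, where 8.93% of all 32851 windows had one.

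Gap43 (ENSMUSG00000047261.9, chr16:42248442-42340651), the other growth cone membrane protein, had 81.7, 80.3 and 65.8 CPM in Yy1 cKO and 84.4 and 96.3 CPM in the controls. The groups did not overlap, but the lower control was only slightly above the upper Yy1 cKO libraries. The log2 fold change was -0.25 ± 0.10 (SE, 95% interval -0.49 to -0.01), and the adjusted p of 0.123 (edgeR quasi-likelihood test) missed the threshold. It passed with library totals alone as the scaling (adjusted p = 0.0416, edgeR). That scaling moved the median log2 fold change of all genes tested to -0.0788, so this pass is weak support. With log2 CPM of Xist as a covariate for the mixed sex Gap43 passed as well (0.0122). Gap43 also passed with no filter on low counts (0.00479), but there the adjusted p of Basp1 was 3.52e-299, against 9.49e-07 in the main fit. The small p-value of that fit is therefore weak support for Gap43. It did not pass in any of the 5 fits with 1 library left out (adjusted p = 0.0834 to 0.52).

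Of the MAP1 pair, Map1a rose and Map1b fell. Map1a (ENSMUSG00000027254.13, chr2:121289600-121310832), whose protein is known from mature dendrites, had 1141, 1128 and 996 CPM in Yy1 cKO and 894 and 848 CPM in the controls. All Yy1 cKO libraries were above both controls, with a log2 fold change of 0.32 ± 0.078 (SE, adjusted p = 0.0154, edgeR quasi-likelihood test). The call was lost without Yy1 cKO 1 (adjusted p = 0.0714), Yy1 cKO 2 (0.0588), control 1 (0.0807) or control 2 (0.155), at log2 fold changes of 0.28 to 0.38 over the 5 fits with 1 library left out. The exons of Map1a share 272 bases, 2.24% of their length, with Ppip5k1 on the opposite strand, which rose by 0.83 ± 0.066 on the log2 scale to 170 ± 5.5 CPM in Yy1 cKO, against 95.6 ± 7.5 CPM in the controls (SD, n = 3 and 2). The strand setting of the counting is not given in the sources used here, and the part of this overlap in the Map1a value was not tested.

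Map1b (ENSMUSG00000052727.6, chr13:99421446-99516540), whose protein is known from growing axons, had 1072, 1064 and 1020 CPM in Yy1 cKO and 1223 CPM in both controls. All Yy1 cKO libraries were below the controls, at 86.0% of the control mean, with a log2 fold change of -0.22 ± 0.063 (SE, adjusted p = 0.0333, edgeR quasi-likelihood test). The call was lost without Yy1 cKO 1 (adjusted p = 0.101), Yy1 cKO 2 (0.0829), control 1 (0.173) or control 2 (0.187), and with dispersions estimated without the robust method (0.0504). Over all 5 fits with 1 library left out its log2 fold change was -0.23 to -0.20.

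Map6 (ENSMUSG00000055407.14, chr7:99267447-99337137), which protects microtubules from cold, had 90.6, 98.1 and 84.1 CPM in Yy1 cKO and 118 and 112 CPM in the controls. It fell by 0.34 ± 0.072 on the log2 scale (SE, adjusted p = 0.00849, edgeR quasi-likelihood test), and every Yy1 cKO library was below both controls. Without control 1 the fall was 0.30 and was not called (adjusted p = 0.108), while it was called without each of the other libraries.

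The classic marker genes of dendrite and axon microtubules did not pass the test. Map2 (ENSMUSG00000015222.17, chr1:66175273-66442583), of dendrites, had 827, 813 and 825 CPM in Yy1 cKO and 878 and 861 CPM in the controls. These groups did not overlap, but the log2 fold change of -0.08 ± 0.060 (SE, 95% interval -0.22 to 0.05) did not pass (adjusted p = 0.379, edgeR quasi-likelihood test). Mapt (ENSMUSG00000018411.17, chr11:104231390-104332090), which encodes tau, an axonal protein, had 411, 396 and 364 CPM in Yy1 cKO and 408 and 387 CPM in the controls. These groups overlapped, with a log2 fold change of -0.03 ± 0.069 (SE, 95% interval -0.18 to 0.13, adjusted p = 0.825, edgeR quasi-likelihood test). Counts per gene do not separate the isoforms of Map2, with 24 annotated transcripts, or of Mapt, with 12.

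The stathmin genes differed in level and in the spread between libraries. Stmn3 (ENSMUSG00000027581.12, chr2:181306459-181314500) had 240, 258 and 177 CPM in Yy1 cKO and 241 and 228 CPM in the controls. The groups overlapped and Yy1 cKO 3 stood lowest. Its log2 fold change of -0.06 ± 0.17 (SE, 95% interval -0.49 to 0.37) did not pass (adjusted p = 0.847, edgeR quasi-likelihood test), and its interval was the widest of the 9 genes. Without Yy1 cKO 3 the log2 fold change was 0.09 (adjusted p = 0.224). Stmn4 (ENSMUSG00000022044.14, chr14:66344296-66361680) had 52.0, 47.7 and 62.2 CPM in Yy1 cKO and 65.8 and 70.8 CPM in the controls. All Yy1 cKO libraries were below both controls, with Yy1 cKO 3 highest of the 3. The log2 fold change of -0.34 ± 0.11 (SE, 95% interval -0.58 to -0.10) just missed the threshold (adjusted p = 0.0518, edgeR quasi-likelihood test). Without Yy1 cKO 3 it was -0.45 and passed (adjusted p = 8.39e-05). It also passed with totals alone (0.0309), without a filter (0.000135) and with limma-voom (0.0499). The limits given for Gap43 on the scaling by totals alone and on the fit without a filter hold here too.

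**Figure D2:**
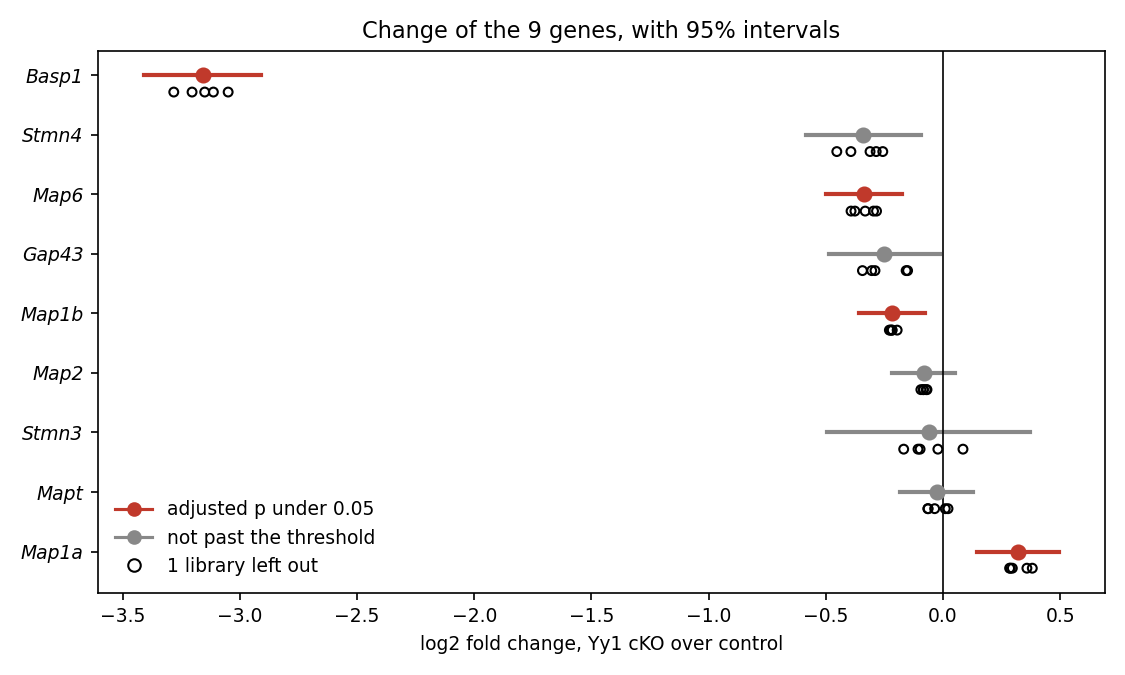
Log2 fold change, Yy1 cKO over control (horizontal axis), of each gene with its 95% interval, in red where the adjusted p is under 0.05 and in grey where it is not, and with 1 library left out (open circles). Basp1 lies at -3.16, and the other 8 genes lie between -0.34 and 0.32.

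Yy1 cKO 3 had the lowest level of its group in 6 of the 9 genes and the highest in 2. Without it 4 of the 9 genes fell and 1 rose, where of 20032 genes tested 3127 fell and 2990 rose, together 30.5%.

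Levels of different genes were compared per kb of exon, taken as the union of all annotated exons. In Yy1 cKO the order was Stmn3 (198 ± 37.3 CPM per kb, SD, n = 3), Map1a (89.5), Map1b (66.4), Mapt (51.8), Map2 (49.97), Gap43 (49.9), Stmn4 (28.2), Map6 (9.94) and Basp1 (6.26). In the controls it was Stmn3 (207 ± 7.9 CPM per kb, SD, n = 2), Map1b (77.2), Map1a (71.6), Gap43 (59.3), Basp1 (55.9), Map2 (52.9), Mapt (52.8), Stmn4 (35.6) and Map6 (12.5). Basp1 stood beside Gap43 in the controls, where their ranges overlapped, and last in Yy1 cKO, where its range lay below that of Map6. Map1a and Map1b changed places, and their ranges did not overlap in either group. Mapt, Map2 and Gap43 in Yy1 cKO, and Map2 and Mapt in the controls, could not be ordered, since the ranges of neighbours overlapped. Basp1 (54.16 and 57.54 CPM per kb) and Mapt (54.18 and 51.41) also overlapped slightly in the controls. With the longest annotated transcript as the length, Map2 stood second in both groups (131 CPM per kb in Yy1 cKO and 139 in the controls), and the ranges of Map1a and Map1b overlapped in Yy1 cKO. Basp1 (60.5) then stood below both Map2 and Mapt (75.7) in the controls, so its place above them there depends on the length used.

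**Figure D3:**
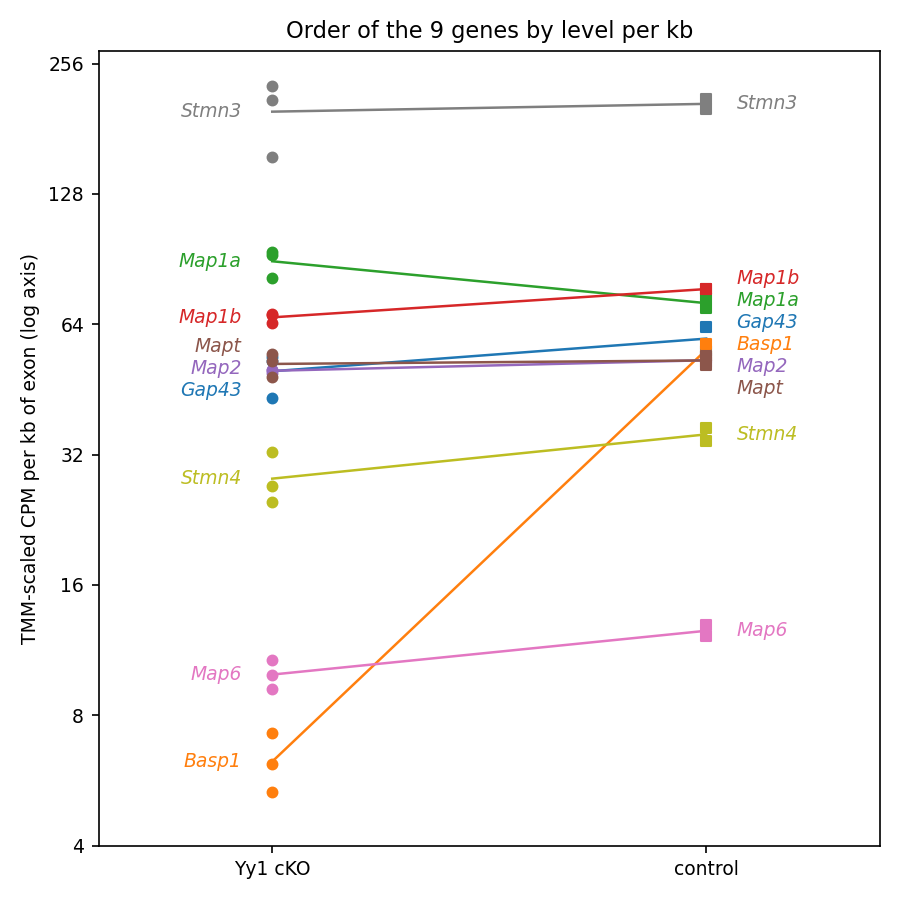
TMM-scaled CPM per kb of exon (log axis) of the 9 genes in each Yy1 cKO library (circles, left) and each control library (squares, right), with lines joining the group means. Basp1 stands at 6.26 CPM per kb in Yy1 cKO and 55.9 in the controls, its line crosses those of Map2, Mapt, Stmn4 and Map6, and the lines of Map1a and Map1b cross each other.

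The ratio of paired genes was also taken within each library, which removes any scaling between libraries. The ratio of Map1a to Map1b per kb was 1.39, 1.38 and 1.27 in Yy1 cKO and 0.952 and 0.904 in the controls, a difference of 0.54 on the log2 scale with no overlap. The ratio of Gap43 to Basp1 was 10.1, 8.52 and 5.95 in Yy1 cKO and 1.02 and 1.1 in the controls, a difference of 2.92 on the log2 scale, again with no overlap. Both reached the smallest p that 3 against 2 libraries allow (exact permutation test, two-sided, p = 0.1, adjusted p = 0.2 over the 4 pairs), so this design cannot pass the threshold. For Stmn3 to Stmn4 the log2 ratio was 2.81 ± 0.48 in Yy1 cKO and 2.54 ± 0.13 in the controls, and for Map2 to Mapt it was -0.05 ± 0.094 in Yy1 cKO and 0.00 ± 0.033 in the controls (SD, n = 3 and 2; exact permutation test, p = 0.5 for each). These last pairs overlapped between the groups.

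**Figure D4:**
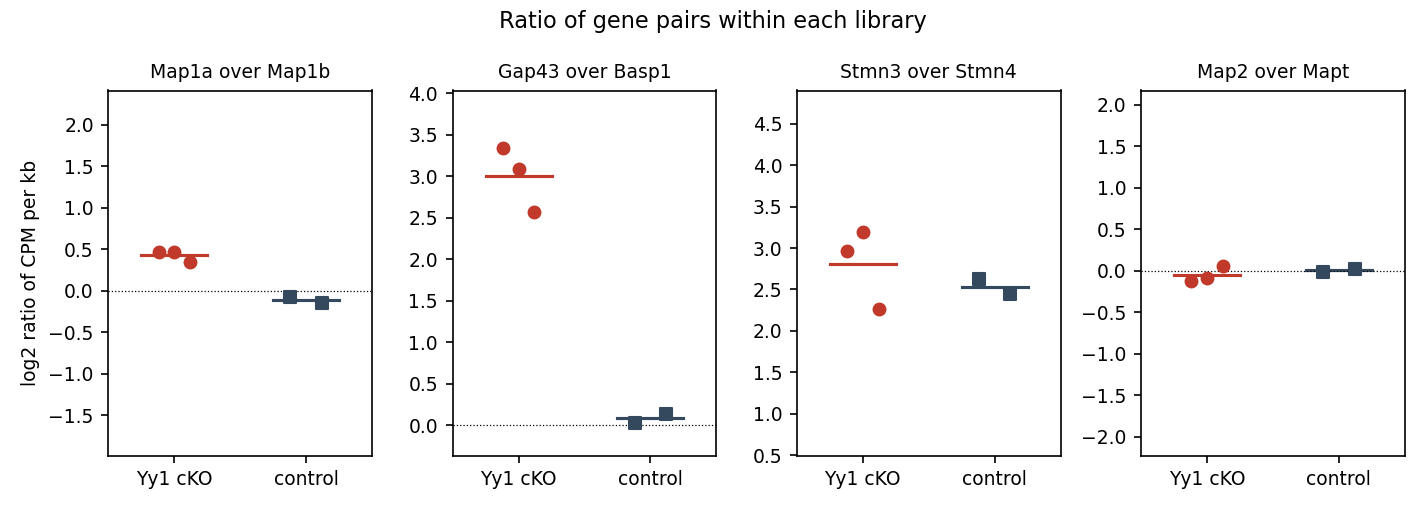
Log2 ratio of CPM per kb within each library (vertical axes, each spanning the same range) for 4 gene pairs in Yy1 cKO (red circles, left) and control libraries (dark squares, right), with group means as lines. The groups stand apart for Map1a over Map1b, by 0.54, and for Gap43 over Basp1, by 2.92, and overlap for the other pairs.

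The genes whose pattern over the 5 libraries was most like that of Basp1, by the root mean square difference of centred log2 CPM among 10726 genes with a mean of at least 10 CPM and no library at 0, were Vash2 (0.211), Cd24a (0.217) and Hist1h2ab (0.229). Vash2 encodes a vasohibin that removes the terminal tyrosine of alpha-tubulin, Cd24a a surface protein of young neurons and Hist1h2ab a histone, whose own count is uncertain because histone genes share near-identical sequence. Their log2 fold changes were -3.05, -2.85 and -3.34. Closest to Map1a were Idh3b (0.0191), a mitochondrial dehydrogenase subunit, Nrxn3 (0.0202), a presynaptic adhesion protein, and Rufy1 (0.0221), an endosomal protein, with log2 fold changes of 0.32 to 0.33.

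Genes related to the 9 by function were counted in 5 lists, each beside the 10.7% of all genes that rose and the 12.6% that fell. Over all genes, too, fewer were called when a control was left out, so counts without a control may reflect a weaker test. The stathmin, CRMP and doublecortin relatives had 8 lower and 0 higher of 11, and their median log2 fold change was -0.61. With upper quartile scaling, or without Yy1 cKO 3, 1 of them was called higher. Dcx, the doublecortin of migrating neurons, stood at 20.3 ± 0.46 CPM in Yy1 cKO and 299 ± 21.3 CPM in the controls, and Dpysl3, a collapsin response mediator, at 36.0 ± 1.0 CPM in Yy1 cKO and 180 ± 5.0 CPM in the controls (SD, n = 3 and 2). The founding stathmin, Stmn1, fell by 1.28 ± 0.067 on the log2 scale (SE, adjusted p = 3e-06, edgeR quasi-likelihood test). Stmn2, the other stathmin of this list, fell by 0.61 ± 0.087 (SE, adjusted p = 0.00102, edgeR quasi-likelihood test). The log2 fold changes of Stmn3 and Stmn4 were -0.06 and -0.34.

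Of 26 growth cone membrane and calmodulin partners 10 fell and 4 rose, with a median of -0.07. Marcksl1 and Marcks, which encode myristoylated substrates of protein kinase C as Basp1 does, fell by 2.12 ± 0.055 and 1.16 ± 0.058 on the log2 scale (SE), and Gprin3 fell by 0.67 ± 0.068. Among those that rose were Cap2 (0.56 ± 0.10), a regulator of actin filaments, and Zdhhc17 (0.25 ± 0.053), a palmitoyl transferase. Without control 1 there were 0 higher and 7 lower, and without control 2 there were 1 higher and 8 lower.

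Other microtubule-associated proteins went both ways, with 8 higher and 3 lower of 30 tested and a median of 0.04. The 3 that fell were the neuron navigator Nav1, at 151 ± 4.6 CPM in Yy1 cKO and 429 ± 36.6 CPM in the controls, Nav3 (log2 fold change -0.86 ± 0.058, SE) and the plus-end protein Mapre1 (-0.66 ± 0.058). Its relative Mapre2 rose by 0.41 ± 0.058, Map7d2 by 0.42 ± 0.064 and Map4, a broadly expressed microtubule stabiliser, by 0.38 ± 0.062. Scaled by totals alone the list had 7 higher, 5 lower and a median of -0.04, and without control 1 it had 4 higher and 3 lower. DESeq2, limma-voom, limma-trend and edgeR without robust dispersion each called 5 lower.

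Kinases and phosphatases of microtubule-associated proteins had 3 higher and 4 lower of 23, with a median of 0.03 that turned to -0.05 with scaling by totals alone, where 2 were higher and 7 lower. The median was also below 0 without Yy1 cKO 2 (-0.03) or control 2 (-0.01). Without control 1 the counts were 2 and 2, without control 2 they were 1 and 2, without Yy1 cKO 1 they were 2 and 2, and without Yy1 cKO 3 they were 6 and 7. Cdk5r1, an activator of the tau kinase CDK5, fell by 0.68 ± 0.068, Ppp2r2b, a phosphatase subunit, by 0.80 ± 0.087 and the kinase Fyn by 0.28 ± 0.070. Camk2b rose by 0.42 ± 0.066 and the tau tubulin kinases Ttbk2 and Ttbk1 by 0.31 ± 0.052 and 0.20 ± 0.057 (SE for all values after ± on the log2 scale).

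Of 10 severing and depolymerising proteins 3 fell and 1 rose, with a median of -0.19 that was -0.09 without Yy1 cKO 2 and -0.03 without control 2. Kif2c, a kinesin that dismantles microtubules in mitosis, had 0 counts in each Yy1 cKO library and 41 and 33 in the controls, at least 12.7-fold lower against a floor of 3 counts per library. Spast, the severing enzyme spastin, fell by 0.41 ± 0.053, and Katnal1, a katanin relative, rose by 0.41 ± 0.063 (SE). Fignl1, the other member that fell, stood near 1.04 CPM in Yy1 cKO and 2.3 CPM in the controls.

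**Figure D5:**
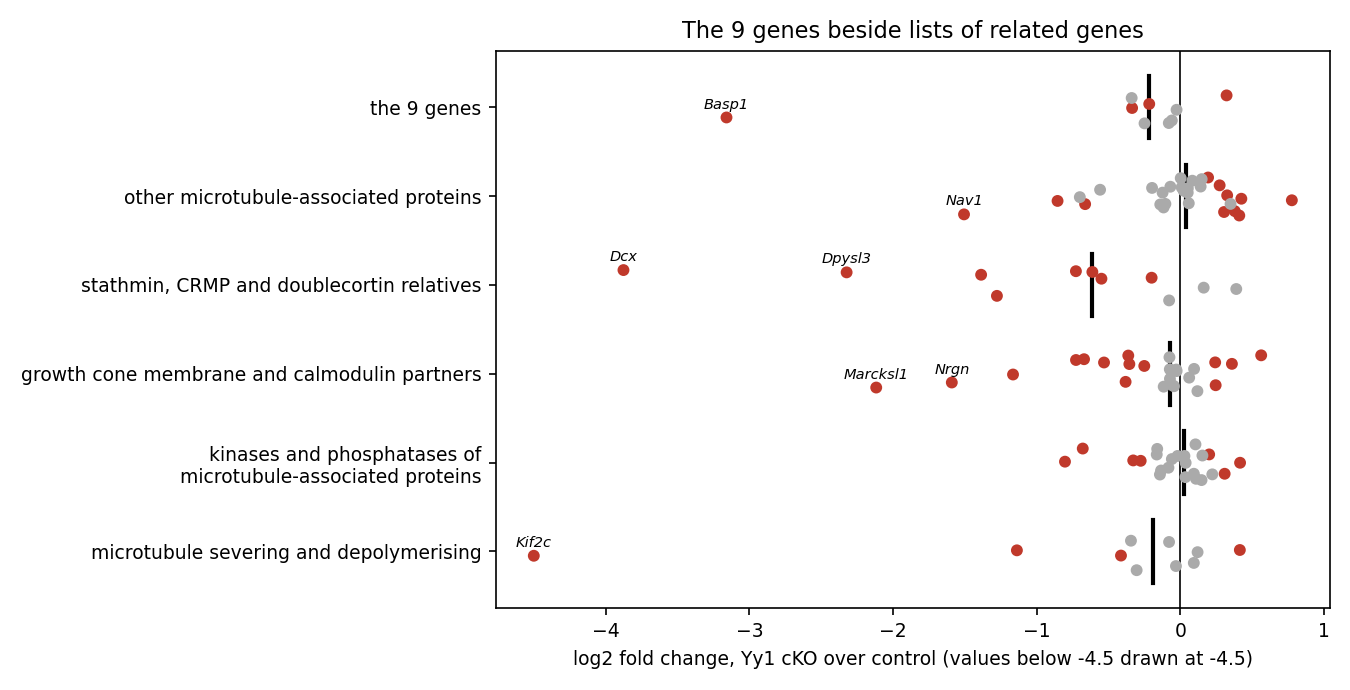
Log2 fold change, Yy1 cKO over control (horizontal axis), of the 9 genes and of every tested gene in 5 lists of related genes, red where the adjusted p is under 0.05, with the list median as a black bar. Medians lie at -0.22 for the 9 genes and -0.61 for the stathmin, CRMP and doublecortin relatives, and between -0.19 and 0.04 for the other lists.

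Markers of several cell types moved beside these genes. Markers of dividing cells fell in 9 of 10 cases, with a summed level of 11.5 to 15.1 CPM in Yy1 cKO and 95.6 to 119 CPM in the controls. Their median log2 fold change was -3.92. Markers of granule cell precursors and young granule cells also fell in 9 of 10, with summed levels of 1010 to 1067 CPM in Yy1 cKO and 1753 to 1809 CPM in the controls. Their median log2 fold change was -3.02, a larger fall than that of the sum, which is weighted to the markers with the highest levels. With at least 1 CPM required in 2 libraries this median was -2.32, and with DESeq2 it was -2.31. In both settings 9 of these markers were tested. Mature granule neuron markers rose in 8 of 10 cases (4235 to 4732 CPM in Yy1 cKO and 3168 to 3312 CPM in the controls), as did those of molecular layer interneurons and Golgi cells (1767 to 1892 CPM in Yy1 cKO and 1190 to 1244 CPM in the controls). The median log2 fold changes of these last lists were 0.555 and 0.608. No marker in these lists was at 0 in every library of a group. Dcx is in the list of young granule cells and among the doublecortin relatives, and Pcp4 is a Purkinje cell marker and a calmodulin partner. The part of these shifts in the values of Basp1, Map1a, Map1b and Map6 was not tested.

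Of 12 Purkinje cell markers 1 rose and 0 fell (5278 to 6027 CPM in Yy1 cKO and 4484 to 4683 CPM in the controls). Their median log2 fold change was 0.08, and the sum is weighted to the markers with the highest levels. Of 8 oligodendrocyte precursor markers 6 fell, as did 4 of 8 endothelial and mural markers, of which 1 rose, and 4 of 6 meningeal fibroblast markers. The medians of these lists were -0.387, -0.458 and -0.858. Without control 1 they were -0.376, -0.621 and -1.07, and without control 2 they were -0.359, -0.33 and -0.607. Counts in the marker lists changed when 1 library was left out, but so did those over all genes. Of all genes tested 23.4% were called with all libraries, 16.7% without Yy1 cKO 1, 18.1% without Yy1 cKO 2 and 30.5% without Yy1 cKO 3. Fewer still were called without a control, so calls lost there may reflect a weaker test. The endothelial and mural list had 2 lower without Yy1 cKO 1, and none of it was called higher without Yy1 cKO 1 or Yy1 cKO 2. Astrocyte and Bergmann glia markers had 4 higher and 2 lower of 10, those of unipolar brush cells and nuclear neurons 3 and 2 of 12, and mature oligodendrocyte markers 2 and 1 of 10. Without control 2 the astrocyte and Bergmann glia list had 2 higher and 1 lower, and it had 1 lower without control 1 or Yy1 cKO 2. The list of unipolar brush cells and nuclear neurons had 0 higher without Yy1 cKO 1 or control 1 and 1 without Yy1 cKO 2 or control 2. For mature oligodendrocyte markers the calls were 0 in both directions without Yy1 cKO 1, control 1 or control 2, 1 higher and 0 lower without Yy1 cKO 2, and 2 higher and 3 lower without Yy1 cKO 3. Erythroid markers rose in 4 of 5 cases, but in 1 without Yy1 cKO 3 or with no filter on low counts, and in 2 without Yy1 cKO 2. Their median log2 fold change was 1.51, with 1.38 without control 1 and 1.64 without control 2. The 7 microglia markers tested did not pass the test. Of 3 choroid plexus markers tested 1 rose, and 0 did without Yy1 cKO 1, control 1 or control 2. Without Yy1 cKO 3 the Purkinje cell markers had 2 higher.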

How the data were processed

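The submitters' processing notes name STAR 2.7.1a, featureCounts, DESeq2 1.26.0, Trimmomatic 0.39 and FastQC 0.11.8, and the build GRCm38. Their settings are not given in the sources used. The deposited raw counts (55421 genes, whole numbers) were tested. The deposited normalized signal, raw counts divided by 1 constant per library (0.969 to 1.07), served as an alternative only. Symbols, positions and exon lengths came from GENCODE M21 (54587 identifiers matched with version, 567 without, 267 not), and promoter sequences from RefSeq.

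The test was edgeR 4.0.16 quasi-likelihood (R 4.3.3) with TMM scaling, filterByExpr, robust dispersion, no covariates and adjustment by Benjamini and Hochberg over all genes tested. Standard errors came from the F statistic. The common biological coefficient of variation was 10.5%. Library pairs differed by 3.51 or more in chi-square per gene, where copies would give about 1, so all were kept. In 1 simulated data set with 200 genes changed the share of false calls was above the nominal rate. Far more genes were called in these data, and whether that share holds for them was not tested. Calls close to the threshold are taken as less certain. Most 1.5-fold changes were missed in the simulation, and whether that holds for these data was not tested either. Not passing is no evidence of no change. The 95% intervals of Gap43, Map2, Mapt, Stmn3 and Stmn4 lay within 1.5-fold in either direction, that of Stmn4 only just. Counting error at these depths is small for the 9 genes, whose lowest count was 212.

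The 9 genes, the lists and the tests were chosen with earlier results of these data known. Yy1, Pcp2, Calb1, Gabra6 and Ppip5k1 were named as checks, and Stmn2 as the other stathmin of the lists. The 3 genes closest to the gene with the smallest p in each direction were named too. From each list, up to 3 genes in each direction were named by smallest p. One gene that this rule names is not reported here. Lists were not tested as sets. Planned protein sequences were not used here. Alternatives were other scalings and filters, DESeq2 1.42.0, limma-voom and limma-trend (limma 3.58.1) on log2 of the deposited signal plus a pseudocount of 1, dispersion without the robust method, the replicate number as a block, Xist as a covariate and leaving out each library.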

Additional observations from a re-analysis of the deposited data

How the results depend on the processing

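With scaling by totals alone 1432 of the 20388 genes tested rose and 3369 fell. The share of higher calls was 29.8%, where TMM scaling gave 45.9%, and 5 of the 9 genes fell with totals alone. Without a filter on low counts 5 of the 9 also fell, where 3054 of 34112 genes tested fell. Leaving out 1 library gave 0 to 1 of the 9 genes higher and 1 to 4 lower, and over all genes 887 to 2990 higher and 1267 to 3127 lower; where 1 control was left, it was assumed to vary like the Yy1 cKO libraries. The replicate numbers do not pair the libraries by the labels, and deviations of same-numbered libraries correlated by 0.0372 and 0.0126. With the replicate number as a block 5 of the 9 genes fell, 1 rose, and over all genes 3486 rose and 3575 fell; Yy1 cKO 3 then has no partner. The block also called Gap43 (log2 fold change -0.15, adjusted p = 0.0291, edgeR) and Stmn4 (-0.45, 3.14e-10). It leaves little of the 5 libraries to estimate their spread. Adjusted p of Basp1 (edgeR) was 6.68e-198 with the block and 3.52e-299 without a filter, where the main fit gave 9.49e-07. Small p-values from these fits are therefore weak support. Among the related genes the block gave 11 higher and 6 lower of 30 other microtubule-associated proteins and 1 and 8 of 11 stathmin, CRMP and doublecortin relatives. It gave 6 and 10 of 26 growth cone partners and 6 and 7 of 23 kinases and phosphatases. Of the marker lists, Purkinje cells then had 4 higher and 1 lower, microglia 2 lower, erythroid cells 2 higher, unipolar brush and nuclear neurons 5 higher, astrocytes and Bergmann glia 4 lower and mature oligodendrocytes 3 lower.

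Basp1 was lower and called in all 11 other settings and in the 5 fits without 1 library. Map1a and Map6 were called in the 11 settings as well. Mapt and Stmn3, which never passed, changed sign. The log2 fold change of Mapt was 0.0217 with the block and -0.0643 to 0.0218 without 1 library, above 0 without Yy1 cKO 3 or control 1. That of Stmn3 was 0.085 with the block and -0.167 to 0.0857 without 1 library, above 0 without Yy1 cKO 3. The within-library ratios kept their sign, at 0.50 to 0.58 for Map1a over Map1b, 2.75 to 3.13 for Gap43 over Basp1, 0.08 to 0.54 for Stmn3 over Stmn4 and -0.11 to -0.02 for Map2 over Mapt. The 2 controls limit the precision of every comparison. The causes of these changes were not tested.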
